A study of Mus musculus with 24 samples.

Results

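LPS-treated alveolar macrophages of 7-day-old mice (D7) were compared with those of 21-day-old mice (D21), using 4 of the 24 libraries of the series: D7 LPS libraries 1 and 2 and D21 LPS libraries 1 and 2, chosen by their labels. Alveolar macrophages were washed out of the lungs, and each library held cells pooled from several mice. Both groups were kept for 4 h in medium with 400 ng/mL LPS from Escherichia coli; strain, sex and genotype are not given in the labels. The 4 libraries held between 17064633 and 20739118 counts. Macrophages of the same ages kept without LPS (2 libraries at D7 and 3 at D21, called control) served to show how the genes differed with age in its absence. The labels do not say that replicates came from separate pools of animals, so the p-values cover the spread among these libraries alone, and that spread may be technical.

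Alveolar macrophages are the resident phagocytes of the airspaces. They arise from fetal monocytes that mature around birth under GM-CSF and TGF-beta and settle into a state with lipid-handling, phagocytic and restrained inflammatory functions. LPS is sensed by TLR4 with CD14 and MD-2. Signalling through MyD88 leads to NF-kappa-B and cytokine genes, and signalling through TRIF leads to interferon beta, whose receptor in turn induces the interferon-stimulated genes. The comparison asks how the LPS-exposed state of these cells differed between the suckling and the weanling age.

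Levels are counts scaled to a common library size with TMM factors and given as CPM, the share of a library that falls on a gene; differences are log2 fold changes, D21 minus D7, ± standard error (SE). A gene passed, and is said to have risen or fallen, at an adjusted p under 0.05 by the quasi-likelihood test of edgeR with Benjamini-Hochberg correction over 11774 tested genes. Of these genes 77 passed (0.654%): 41 rose (0.348%) and 36 fell (0.306%), while 762 had an unadjusted p under 0.05. Among 7809 genes with a mean of at least 5 CPM in the 4 libraries, 230 differed more than 2-fold between the D7 LPS libraries and 64 between the D21 LPS libraries. Some libraries of other groups over- or under-represented GC-rich transcripts (10 of 24 deviated by more than 1 on a log2 scale). D21 control libraries 2 and 3 were among these, at -2.12 and -1.67. The fit shares its spread estimate over all groups. The 4 libraries compared lay between -0.20 and 0.39 on that scale. A fit with this GC deviation as a term raised the count to 204 rises (1.73%) and 164 falls (1.39%), and a fit of the 14 libraries within 1 to 435 (3.69%) and 329 (2.79%); of the 77 genes, 76 passed in each.

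**Figure D1:**
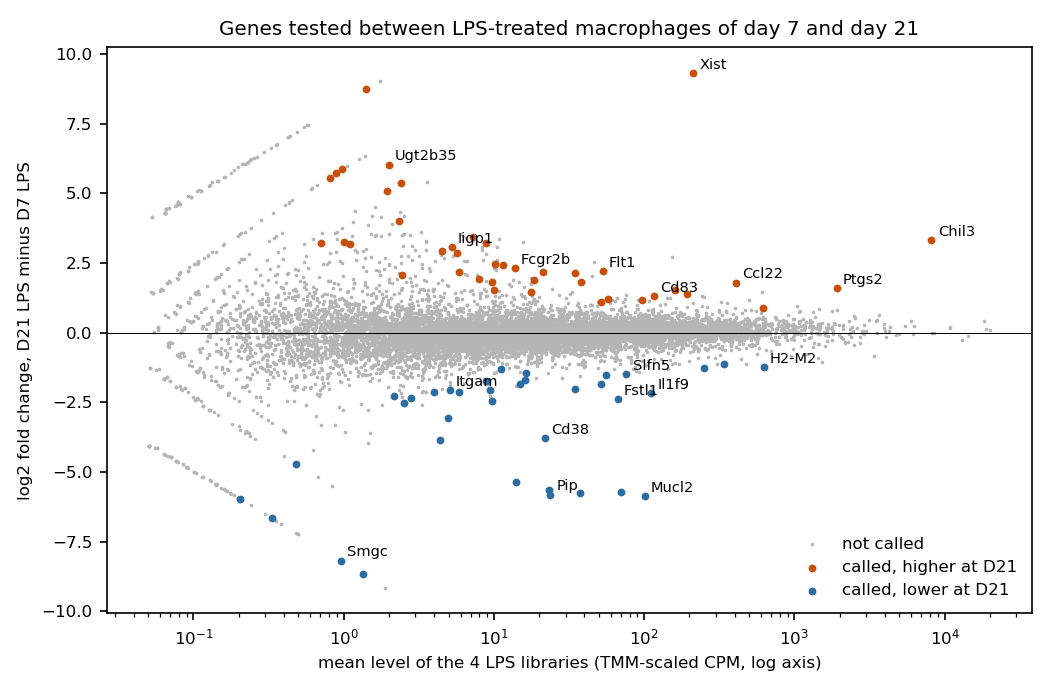
Log2 fold change of each tested gene (D21 LPS minus D7 LPS, vertical) against its mean level in the 4 LPS libraries (TMM-scaled CPM, log axis); grey points did not pass, orange points rose and blue points fell. Chil3 stands out at high level among the rises (3.32), and Cd38 (-3.79) and the gland genes around Mucl2 (-5.88) among the falls.

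The libraries carried the transcripts of alveolar macrophages at both ages. In FPKM ( reads scaled by library size and transcript length), the lectin Siglecf was between 21.6 and 41.3, the integrin Itgax between 109 and 126, the GM-CSF-dependent regulator Pparg between 18.1 and 27.0, and Ear2, a ribonuclease gene of these cells, between 981 and 1200. Of 36 tested genes of alveolar macrophage identity 1 rose and 0 fell, with a median log2 fold change of 0.29 against -0.01 over all tested genes. That member was Chil3. Siglecf was at 66.3 and 62.6 CPM at D7 and at 126 and 107 CPM at D21 (0.86 ± 0.29). Pparg was at 65.9 and 55.5 CPM and then at 87.3 and 82.8 CPM (0.49 ± 0.26). Neither passed. Car4, a carbonic anhydrase gene of these cells, overlapped between the ages, at 232 and 369 CPM and then at 330.0 and 498 CPM (0.46 ± 0.60). With the GC term 4 were higher and 0 lower, which added the fatty acid binding protein gene Fabp1 (2.71 ± 0.35), the keratin gene Krt79 (1.93 ± 0.35) and the adhesion receptor gene Cd2 (2.12 ± 0.36). Fabp1 is also a product of liver, and summed liver markers were 34.9 and 83.2 CPM in D7 LPS and 334 and 401 CPM in D21 LPS. The part of liver RNA in the Fabp1 change was not tested.

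Chil3 encodes the chitinase-like protein Ym1, an abundant secreted lectin of mature alveolar macrophages. It was at 1570 and 1404 CPM in the D7 LPS libraries and at 15160 and 14570 CPM in the D21 LPS libraries, far apart and with little difference between replicates (3.32 ± 0.34, edgeR adjusted p = 2.5e-05). Control libraries were at 1535 and 1560 CPM at D7 and between 18630 and 22130 CPM at D21, and the age change did not differ with LPS by the interaction test (-0.43 ± 0.42). Its close paralog Chil4 was at 0 in both D7 LPS libraries and at 0.159 and 1.23 CPM in the D21 LPS libraries; how reads shared by both were counted is not known. Chil3 was the 1 of 3 tested chitinase-like and resistin-like genes that rose. Chil1, another member of that list, went from 2.68 and 1.82 CPM to 0.476 and 0.258 CPM and did not pass (-2.58 ± 0.78, edgeR adjusted p = 0.206), but did with the GC term (-2.49 ± 0.60, edgeR adjusted p = 0.0138) and in the 14 libraries (edgeR adjusted p = 0.0339).

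Fcgr2b and Flt1 rose and passed in every fit that left out 1 LPS library. Fcgr2b, the inhibitory receptor for IgG, was at 5.58 and 3.65 CPM at D7 and at 24.2 and 21.6 CPM at D21 (2.31 ± 0.27, edgeR adjusted p = 0.000163). Flt1, encoding the VEGF receptor VEGFR1, was at 19.2 and 18.6 CPM at D7 and at 90.6 and 84.1 CPM at D21 (2.21 ± 0.27, edgeR adjusted p = 0.000292). Neither gene overlapped between the ages. This held for all 77 genes that passed, and it is no separate support, since passing already selects for such a difference. Control cells showed the same direction, with rises of 2.16 ± 0.25 for Fcgr2b and 2.43 ± 0.26 for Flt1. Itgam, the CD11b chain of a complement receptor, fell from 8.21 and 8.16 CPM to 1.53 and 2.39 CPM (-2.06 ± 0.38, edgeR adjusted p = 0.0132). Of 29 tested phagocytic and scavenger receptor genes Fcgr2b and Itgam were the members that passed, 1 up and 1 down, with a median of 0.02. The GC term added the beta-glucan receptor Clec7a (0.73 ± 0.20) upward and the collectin Colec12 (-0.90 ± 0.23) and the bridging protein Mfge8 (-1.87 ± 0.36) downward. Marco, a scavenger receptor for bacteria, was at 659 and 1394 CPM at D7 and at 659 and 1077 CPM at D21, where the replicates differed more than the ages. The mannose receptor Mrc1 was at 1375 and 1245 CPM and then at 2262 and 2189 CPM and did not pass (0.76 ± 0.29), although it did in the 14 libraries (edgeR adjusted p = 0.00487).

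Of the cytokine genes reported whatever their result, Il6, Il1b and Tnf did not pass. Il6 was at 554 and 480 CPM at D7 and at 476 and 491 CPM at D21 (-0.10 ± 0.34). Il1b was at 1498 and 1757 CPM and then at 1888 and 2171 CPM (0.32 ± 0.30), and Tnf at 1985 and 3372 CPM and then at 2789 and 4472 CPM (0.44 ± 0.77). The chemokine Ccl5 was at 117 and 150 CPM and then at 105 and 127 CPM (-0.20 ± 0.48). For Il6, Tnf and Ccl5 the ages overlapped, and none of the 4 genes passed.

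The receptors of LPS also overlapped between the ages: Tlr4 was at 22.7 and 18.9 CPM at D7 and at 24.1 and 21.4 CPM at D21, and its co-receptor Cd14 at 288 and 356 CPM and then at 299 and 363 CPM. The anti-inflammatory cytokine Il10 was at 8.38 and 5.93 CPM and then at 15.2 and 15.6 CPM (1.11 ± 0.61, not passing). As a wider reference, 382 genes were taken that LPS raised at both D3 (522 genes, 4.43%) and D49 (617 genes, 5.24%), ages whose libraries are outside this comparison. Among these 382 the median change from D7 to D21 was 0.03. Of them 4 rose, namely Ccnd2, Ccl22, Ptgs2 and Mtmr7, and 4 fell, namely H2-M2, Acsl1, Rasgrp1 and Slfn5. Over all 11774 tested genes 41 rose (0.348%) and 36 fell (0.306%). With the GC term 23 of the 382 were higher and 23 lower, against 204 (1.73%) and 164 (1.39%) of all tested genes.

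Of 23 tested proinflammatory cytokine genes 0 rose and 1 fell, with a median of 0.07; in the 14 libraries 4 were higher and 2 lower. The member that fell was Il1f9, the gene of the interleukin 1 family cytokine IL-36 gamma, at 182 CPM in both D7 LPS libraries and at 40.9 and 40.6 CPM in the D21 LPS libraries (-2.16 ± 0.30, edgeR adjusted p = 0.000968). It fell in control cells as well, by 1.31 ± 0.26 (edgeR adjusted p = 0.0164). Il12b, the shared subunit of IL-12 and IL-23, was at 72.6 and 67.1 CPM and then at 29.6 and 28.5 CPM; it did not pass (-1.27 ± 0.44, edgeR adjusted p = 0.329) but did with the GC term (-1.31, edgeR adjusted p = 0.0145). The GC term also brought in Tnfsf11, encoding RANK ligand, which went from 0 and 0.304 CPM to 6.66 and 7.36 CPM, and the costimulatory ligand Tnfsf18, which stayed under 5 CPM in all 4 libraries.

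Chemokine genes had a median of 0.33 over 18 tested members, and 1 of them rose and 0 fell. That member, Ccl22, attracts regulatory T cells and other CCR4-bearing cells. It was at 197 and 170 CPM in the D7 LPS libraries and at 703 and 566 CPM in the D21 LPS libraries (1.79 ± 0.33, edgeR adjusted p = 0.0132), and at 22.6 and 19.9 CPM in D7 control and between 123 and 159 CPM in D21 control. Ccl22 was also the member that rose among 21 tested tolerogenic genes, of which 0 fell (median 0.35). With the GC term 5 of the 21 were higher and 1 lower. These were Ccl22, the growth factor Tgfb2 (1.42 ± 0.29), the transcription factor Irf4 (1.36 ± 0.30), the inhibitory receptor Havcr2, which encodes TIM-3 (1.11 ± 0.23), the retinal dehydrogenase Aldh1a1 (1.84 ± 0.48) and, downward, thrombospondin Thbs1 (-1.85 ± 0.38).

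Among costimulatory and adhesion molecules, Cd83, a dendritic cell maturation marker, was at 65.1 and 68.2 CPM and then at 166 and 166 CPM (1.31 ± 0.28, edgeR adjusted p = 0.0361), the 1 of 12 tested members that rose; 0 fell and the median was 0.05. With the GC term Cd80 and Cd86, the ligands of CD28 and CTLA-4, were higher too. Cd86 went from 38.6 and 39.7 CPM to 94.4 and 93.0 CPM (1.20 ± 0.24) and Cd80 from 9.74 and 8.01 CPM to 20.9 and 23.2 CPM (1.25 ± 0.27). Of 8 MHC class II presentation genes none passed (median 0.77, range -0.45 to 1.72), and H2-Aa alone did with the GC term (1.54 ± 0.38); H2-Ab1 was at 1.43 and 1.37 CPM and then at 4.28 and 4.97 CPM (1.72 ± 0.81). The summed level of 9 dendritic cell markers, 3 of them tested and 0 passing, was higher at D21 as well. It was between 14.6 and 20.4 CPM at D7 and between 41.9 and 45.9 CPM at D21. In the control libraries of both ages the sum was between 6.11 and 12.9 CPM. Cd83 in these control libraries was at 58.4 and 65.1 CPM at D7 and at 126 to 136 CPM at D21. Most of the marker sum with LPS was Zbtb46, at 34.7 to 38.1 CPM at D21, which is among the genes that LPS raised at both D3 and D49. The dendritic cell markers Cd209a and Siglech had no count in any of the 4 LPS libraries. The part of dendritic cells in these values was not tested. In bulk samples fewer cells of a type and less RNA per cell cannot be told apart.

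Ptgs2, the inducible cyclooxygenase COX-2, rose from 1007 and 905 CPM to 2824 and 2930 CPM (1.59 ± 0.34, edgeR adjusted p = 0.0335); it lay between 61.4 and 180 CPM in the control libraries of both ages. Pla2g7, which encodes the hydrolase of platelet-activating factor, fell from 85.0 and 76.3 CPM to 23.2 and 21.9 CPM (-1.84 ± 0.31, edgeR adjusted p = 0.00627). These were the members that passed among 17 tested prostaglandin and leukotriene genes (median 0.05). The constitutive cyclooxygenase Ptgs1 was lower with the GC term (-1.31 ± 0.36).

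**Figure D2:**
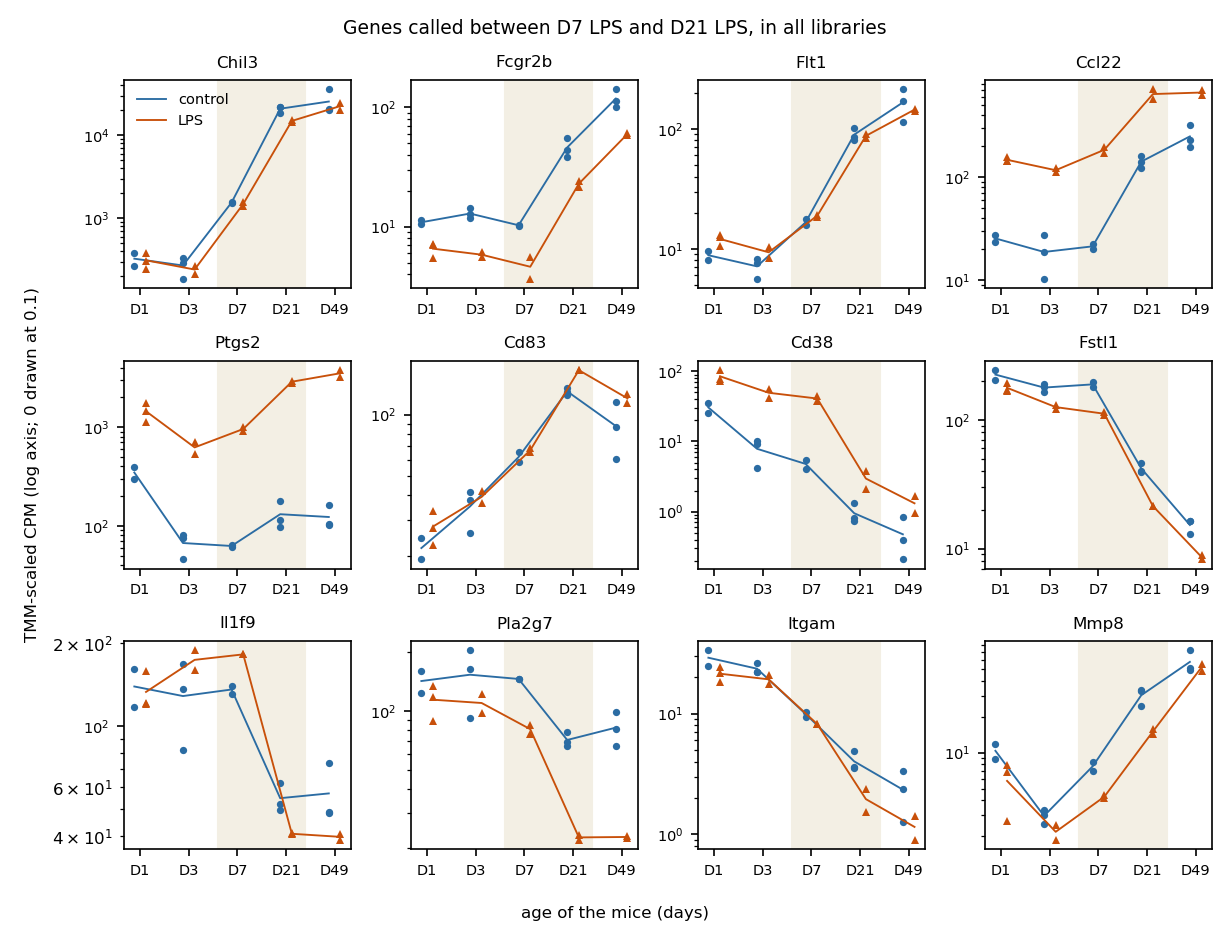
Levels (TMM-scaled CPM, log axis) of 12 genes that passed between D7 LPS and D21 LPS in all 24 libraries, by age; blue circles are control libraries, orange triangles LPS libraries, lines join group means, and the shaded band marks D7 and D21. Chil3, Fcgr2b, Flt1 and Fstl1 changed in the same direction in control and LPS cells, and Ptgs2 was at 2824 and 2930 CPM in D21 LPS and between 98.0 and 180 CPM in D21 control.

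Cd38, an NAD glycohydrolase that LPS induces in macrophages, had the largest fall outside the gland genes among those named by size of change. It was at 44.5 and 37.4 CPM in D7 LPS and at 2.12 and 3.81 CPM in D21 LPS (-3.79 ± 0.52, edgeR adjusted p = 0.000826), and at 4.07 and 5.51 CPM in D7 control and between 0.731 and 1.31 CPM in D21 control. The D21 LPS libraries were thus no higher than the D7 controls. Fstl1, a secreted follistatin-like glycoprotein gene, fell from 114 and 109 CPM to 21.4 CPM in both D21 libraries (-2.38 ± 0.20, edgeR adjusted p = 3e-06) and fell in control cells by 2.17 ± 0.17. Cd300a, an inhibitory receptor for phosphatidylserine, fell from 8.49 and 10.7 CPM to 2.22 and 2.13 CPM (-2.14 ± 0.41, edgeR adjusted p = 0.0182).

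Further genes that passed included enzymes of lipid metabolism. The acyl-CoA synthetase Acsl1 fell from 360 and 352 CPM to 152 and 142 CPM (-1.28 ± 0.26) and the lysophospholipid acyltransferase Lpcat2 from 79.4 and 87.2 CPM to 27.5 and 30.4 CPM (-1.52 ± 0.32). The desaturase Scd1 rose from 1.82 and 2.43 CPM to 12.0 and 7.36 CPM (2.18 ± 0.48), the 1 member to rise of 14 tested fatty acid synthesis genes. Of 17 tested MHC class I presentation genes none passed (range -0.78 to 0.65); the class Ib gene H2-M2, outside that list, fell from 864 and 889 CPM to 388 and 362 CPM (-1.22 ± 0.24). Reads of H2-M2 may be shared with related class I genes.

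The remaining genes named by size of change were of mixed function. Upward were the membrane protein Ms4a8a (11.3 and 14.2 to 54.1 and 58.0 CPM), the neutrophil-type collagenase Mmp8 (4.39 and 4.16 to 15.8 and 14.3 CPM), the zinc finger gene Zfp125 (1.81 ± 0.37), the depalmitoylase Abhd17c (1.53 ± 0.33), Rell1 (1.46 ± 0.33) and Fam107b (1.37 ± 0.29). Downward were the antimicrobial lectin Reg3g (16.5 and 14.0 to 3.23 and 4.07 CPM) and the calprotectin subunit S100a8 (59.9 and 50.5 to 13.0 and 14.1 CPM). Of 23 tested matrix and metalloproteinase genes Mmp8 was the 1 that rose, and 0 fell; the GC term added Mmp13 (1.38 ± 0.23) and Plat, the tissue plasminogen activator (2.25 ± 0.44), upward. S100a8 was the 1 that fell among 7 tested neutrophil markers. The sum of the 15 neutrophil markers was 74.9 to 78.2 CPM at D7 and 29.9 to 35.8 CPM at D21. S100a8 is part of that sum and its highest member, so the sum is no separate measure of neutrophils. The defining marker Ly6g had no count in the 4 libraries. The part of neutrophils in the S100a8 values was not tested.

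Interferon-stimulated genes lay mostly below 0 in the comparison, with a median of -0.40 over 59 tested members, 53 of them below 0. Of the 59, 1 rose and 1 fell. Slfn5, a Schlafen family gene induced by interferon, fell from 114 and 110 CPM to 38.8 and 41.3 CPM (-1.48 ± 0.32, edgeR adjusted p = 0.0361). Iigp1, an immunity-related GTPase, rose from 0.684 and 1.52 CPM to 9.47 and 9.30 CPM (3.08 ± 0.53, edgeR adjusted p = 0.00861). In control cells Iigp1 was at 12.8 and 10.9 CPM at D7 and between 5.13 and 9.30 CPM at D21, so the D7 LPS libraries were the low ones. The summed liver markers were also low there, at 34.9 and 83.2 CPM in D7 LPS and between 171 and 427 CPM in the other D7 and D21 libraries. At D49 Iigp1 lay between 0.312 and 1.05 CPM and the liver sum between 20.1 and 91.8 CPM. At D1 both were higher with LPS than in control. At D3 they did not move together: Iigp1 was at 6.26 to 9.44 CPM in control and 2.24 to 3.54 CPM with LPS. The liver sum at D3 was 168 to 274 CPM in control and 192 to 212 CPM with LPS. The part of liver RNA in the Iigp1 values was not tested. With the GC term 9 were lower and 1 higher, and in the 14 libraries 17 were lower and 1 higher. The 9 held, beside Slfn5, the tetratricopeptide gene Ifit3 (-1.13), the oligoadenylate synthetase Oas3 (-1.42), the nucleotide kinase Cmpk2 (-1.15), the deISGylase Usp18 (-1.05), and Ifit3b, Oas2, Ifi209 and Slfn1.

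For 2 members chosen after their values were seen the ages overlapped. Isg15, a ubiquitin-like modifier, was at 201 and 275 CPM and then at 227 and 211 CPM (-0.12 ± 1.18, overlapping), and the guanylate-binding protein gene Gbp5 at 961 and 970 CPM and then at 964 and 1030 CPM (0.05 ± 0.29, overlapping). Ifnb1, whose product induces the family, was at 7.41 and 6.28 CPM and then at 3.49 and 3.36 CPM (-0.998 ± 0.697), and the interferon-induced chemokine gene Cxcl10 at 796 and 637 CPM and then at 473 and 359 CPM (-0.78 ± 0.41). Neither passed.

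The control cells had the opposite sign in this family. Its median change from D7 to D21 without LPS was 0.60, and 6 members rose and 0 fell in that comparison, in which 129 genes passed (1.1%) and 85 rose (0.722%). Ifit3 was at 88.7 and 100 CPM in D7 LPS and at 41.6 and 44.3 CPM in D21 LPS, but at 1.595 and 1.52 CPM in D7 control and between 4.23 and 5.06 CPM in D21 control. Oas3 was at 11.1 and 10.1 CPM and then at 4.02 and 3.87 CPM with LPS, against 0.515 and 0.253 CPM and then 1.03 to 2.13 CPM without it. The difference of the age changes with and without LPS passed for 12 genes in all (0.102%), Ifit3 (-2.69 ± 0.41, edgeR adjusted p = 0.00466), Oas3 (-3.31 ± 0.56, edgeR adjusted p = 0.013) and Iigp1 (3.92 ± 0.68, edgeR adjusted p = 0.0168) among them. With the GC term 7 of the 59 members passed in this interaction, 6 downward, out of 33 genes in all (0.28%). Reads of Ifit3 and Ifit3b, which are near-identical copies, and of neighbouring Schlafen genes may be shared.

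**Figure D3:**
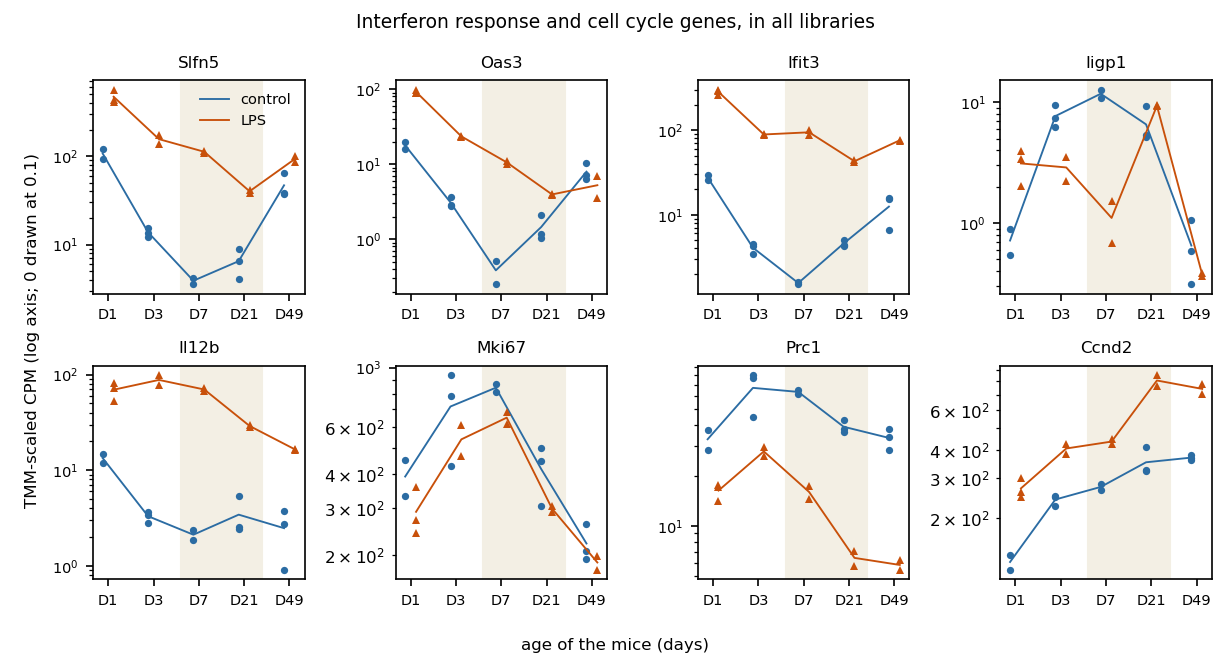
Levels (TMM-scaled CPM, log axis) of 4 interferon response genes, Il12b and 3 cell cycle genes in all 24 libraries, by age; symbols, lines and shading as for the other age profiles (blue circles control, orange triangles LPS, shaded D7 and D21). In the shaded band Oas3 and Ifit3 were lower at D21 under LPS (-1.42 and -1.14 on the log2 scale, neither passing) and rose without LPS (1.89 and 1.55).

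The promoters of the lower interferon genes are shown because the family shares a known sequence element. The core of the interferon-stimulated response element was searched as GAAANNGAAA on both strands, in the RefSeq window from 250 bases before to 50 after the start of each gene (build GRCm38.p6). It was found in 30 of 57 windows (52.6%) of 47 tested interferon response genes with an entry, against 3.44% of all 32851 windows. In the windows of tested genes the share was 3.26%. The 250 bases before the start follow for 3 of these genes, with each match in capitals.
Slfn5, chr11:82951852-82952101, plus strand: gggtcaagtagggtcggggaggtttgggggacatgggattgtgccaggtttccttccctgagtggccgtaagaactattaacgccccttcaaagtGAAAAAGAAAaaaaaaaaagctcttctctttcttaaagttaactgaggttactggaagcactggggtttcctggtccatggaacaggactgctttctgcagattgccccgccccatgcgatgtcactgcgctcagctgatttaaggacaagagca
Oas3, chr5:120777660-120777909, minus strand: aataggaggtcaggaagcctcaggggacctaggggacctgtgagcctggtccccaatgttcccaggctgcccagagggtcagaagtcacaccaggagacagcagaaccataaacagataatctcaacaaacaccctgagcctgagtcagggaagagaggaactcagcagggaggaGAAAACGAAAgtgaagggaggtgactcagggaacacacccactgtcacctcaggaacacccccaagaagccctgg
Ifit3, chr19:34583279-34583528, plus strand: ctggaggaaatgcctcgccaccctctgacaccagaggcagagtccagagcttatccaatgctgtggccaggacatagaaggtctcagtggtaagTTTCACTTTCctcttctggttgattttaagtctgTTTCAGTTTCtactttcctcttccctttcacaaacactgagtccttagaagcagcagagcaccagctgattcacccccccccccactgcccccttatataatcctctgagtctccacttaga
Slfn5 had 1 match, starting 155 bases before the start, Oas3 had 1, at 75 bases, and Ifit3 had 2, at 156 and 122 bases on the opposite strand. A match is a description of these letters and does not show binding.

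Cell cycle genes also lay mostly below 0. Over 51 tested members the median was -0.72, with 42 below 0; 1 rose and 1 fell. Prc1, a midzone protein of the mitotic spindle, fell from 17.3 and 14.5 CPM to 7.09 and 5.75 CPM (-1.31 ± 0.28, edgeR adjusted p = 0.0361), and Ccnd2, the D-type cyclin of G1, rose from 444 and 425 CPM to 851 and 766 CPM (0.89 ± 0.19, edgeR adjusted p = 0.0335). Mki67, the gene of a proliferation antigen, was at 683 and 619 CPM and then at 306 and 291 CPM; it did not pass (-1.13 ± 0.32, edgeR adjusted p = 0.154) and did with the GC term (-1.18, edgeR adjusted p = 0.00197).

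With the GC term 10 of the 51 were lower and 1 higher, and in the 14 libraries 20 were lower and 1 higher. The 10 held Top2a, the replication topoisomerase (-1.15 ± 0.22), the centromere protein Cenpf (-1.78 ± 0.35), the mitotic cyclin Ccnb1 (-1.04 ± 0.24), the spindle checkpoint kinase Bub1 (-1.21 ± 0.27) and the Polo-like kinase Plk1 (-2.53 ± 0.57). The control cells had a median of -0.56 for the list, with 0 passing and, with the GC term, 10 lower (all genes 1.42%). No member passed in the interaction test.

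Promoters of mitotic genes often join CCAAT boxes to a cell cycle homology region, and both are shown for a member that fell and for Mki67. The region was searched as TTTGAA and the box as CCAAT, both strands, in the same windows. TTTGAA was found in 22 of 44 windows (50.0%) of 41 cell cycle genes with an entry, against 17.9% of all windows, and CCAAT in 34 of 44 (77.3%) against 37.4%. In the windows of tested genes the shares were 12.7% for TTTGAA and 38.0% for CCAAT. Top2a and Bub1, both lower with the GC term, are not printed. Top2a held TTTGAA 2 times and CCAAT 6 times, and Bub1 held TTTGAA 0 times and CCAAT 2 times. In the 250 bases before the start, capitals mark the matches of either.
Prc1, chr7:80294226-80294475, plus strand: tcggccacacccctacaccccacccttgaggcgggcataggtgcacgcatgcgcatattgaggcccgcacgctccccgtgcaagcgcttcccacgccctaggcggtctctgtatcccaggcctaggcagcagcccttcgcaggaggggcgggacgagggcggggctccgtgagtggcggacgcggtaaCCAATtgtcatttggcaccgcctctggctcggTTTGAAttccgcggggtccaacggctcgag
Mki67, chr7:135716380-135716629, minus strand: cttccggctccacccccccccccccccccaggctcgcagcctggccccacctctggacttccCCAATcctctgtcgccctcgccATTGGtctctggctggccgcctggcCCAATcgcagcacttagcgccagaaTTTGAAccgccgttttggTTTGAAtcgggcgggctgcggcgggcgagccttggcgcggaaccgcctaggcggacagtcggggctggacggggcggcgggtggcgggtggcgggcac
Of 2 RefSeq starts of Prc1 this window belongs to the downstream start, with TTTGAA beginning 30 and CCAAT 62 bases before it. Mki67 held TTTGAA 2 times, at 116 and 98 bases, and CCAAT 3 times, at 188, 166 and 141 bases, the middle one read on the opposite strand (ATTGG).

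Igf2bp1, an oncofetal RNA-binding protein gene, was at 5.81 and 5.57 CPM and then at 0.793 and 1.10 CPM; it just missed the threshold (-2.59 ± 0.60, edgeR adjusted p = 0.0538) and passed with the GC term (-2.55 ± 0.42). Of 8 tested oncofetal genes 0 passed (range -2.59 to 1.25), and with the GC term the regulator Arid3a was lower too (-1.07 ± 0.26) and Igf1 higher (1.19 ± 0.27). In the iron list the 1 member of 14 that rose was the ferroxidase Cp, from 1.20 and 1.57 CPM to 11.6 and 8.39 CPM (2.84 ± 0.62, edgeR adjusted p = 0.0383), while the phagosomal metal transporter Slc11a1 (-2.18 ± 0.36) and the iron exporter Slc40a1 (-0.92 ± 0.24) were lower with the GC term. In the lists of Toll-like receptor signalling (37 tested), negative feedback (28), cholesterol synthesis (22), oxidative burst (24), lysosome (24), glycolysis (23), lipid uptake (27), complement (10), monocyte markers (12), immediate early factors (19) and stress response (14), no member passed. Their medians lay between -0.38 for the oxidative burst and 0.32 for the immediate early factors, and their members between -2.13 and 2.54.

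**Figure D4:**
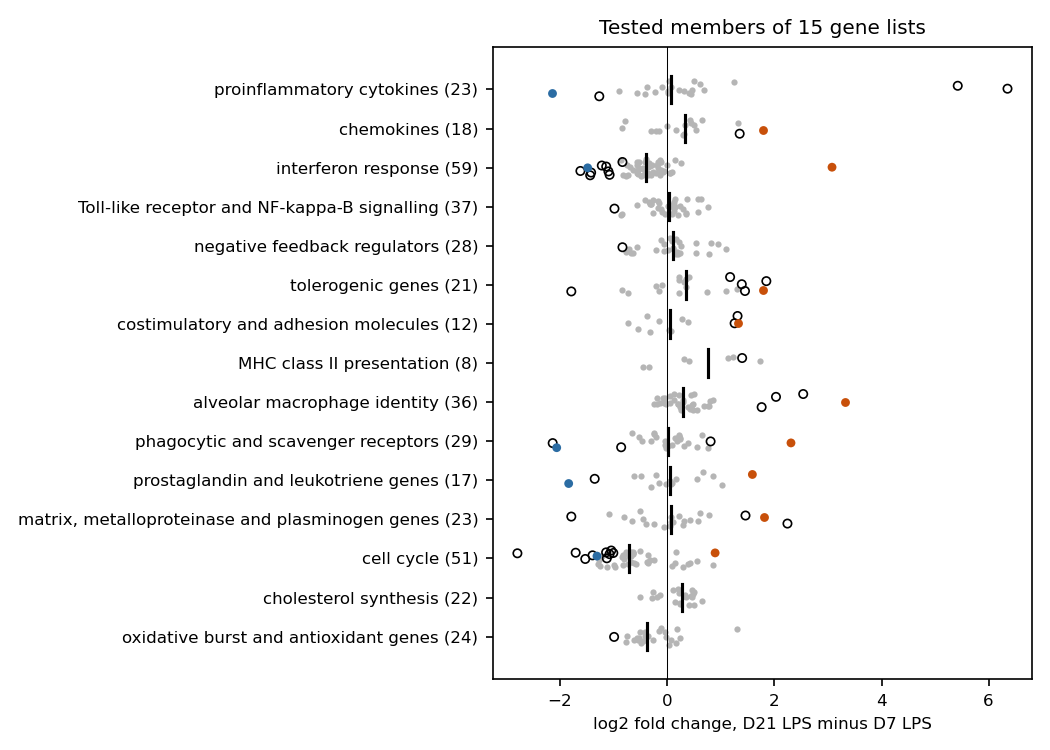
Log2 fold change (D21 LPS minus D7 LPS) of the tested members of 15 gene lists, the number tested in brackets; filled orange and blue points passed, open circles passed with the GC term and not without it, and the bar is the list's median. The interferon response (-0.40) and cell cycle (-0.72) medians lie below 0, and the tolerogenic (0.35) and MHC class II (0.77) medians above it.

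Transcripts known from exocrine glands also moved with the comparison, and in opposite directions with and without LPS. The 6 largest falls among the genes named by size were secretory gland genes: the mucin-like Mucl2, the prolactin-induced protein Pip, the secretoglobins Scgb2b27, Scgb1b27 and Scgb2b26, and Prol1 of tears and saliva. Mucl2 was at 191 and 205 CPM in D7 LPS and at 3.44 and 3.29 CPM in D21 LPS (-5.88 ± 0.45), but at 5.35 and 4.14 CPM in D7 control and between 618 and 625 CPM in D21 control. Of 10 tested exocrine gland markers 8 fell and 0 rose. The summed gland markers were 533 and 549 CPM in D7 LPS, 11.0 and 11.9 CPM in D21 LPS, 16.1 to 16.5 CPM in D7 control and 1525 to 1815 CPM in D21 control. At D1 the gland sum was 901 to 1358 CPM with LPS and 8.39 to 9.04 CPM in control. At D49 it was 7.63 to 10.5 CPM with LPS and 1329 to 2403 CPM in control. The part of gland RNA in these values was not tested. Smgc, a salivary mucin gene, had no count in D21 LPS and 2.22 and 1.62 CPM in D7 LPS, at least 10.9-fold lower against a mean floor of 3 counts per library. Secretoglobin reads may be shared among paralogs. The difference of the age changes passed for all 8, and for the 7 other than Smgc it lay between -13.16 for Pip and -8.42 for Car6.

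Liver transcripts were higher at D21. Of 12 tested liver markers 3 rose, namely the fibrinogen chain Fgb (0.684 and 2.69 to 18.4 and 13.4 CPM), the lectin Mbl1 (0 and 0.0507 to 1.75 and 1.74 CPM) and the tryptophan dioxygenase Tdo2 (0.855 and 1.22 to 8.25 and 7.81 CPM); 0 fell. The summed level was 34.9 and 83.2 CPM in D7 LPS, 334 and 401 CPM in D21 LPS, 309 to 406 CPM in D7 control and 171 to 427 CPM in D21 control, so the D7 LPS libraries were the low ones. Other plasma protein genes that rose included Pzp (3.43), Apcs (5.08) and Serpina7 (5.56). Cp, named among the iron genes, is also a major product of liver: it was at 10.7 to 11.7 CPM in D7 control and 10.9 to 14.7 CPM in D21 control. The part of liver RNA in its rise was not tested.

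In the remaining marker lists, of other cells that a lavage could hold, no member passed, but often few were tested. The tested members were 10 for lung epithelium, 2 for squamous epithelium, 9 for skeletal muscle, 3 for endothelium and 4 for erythroid cells. For T and NK cells, B cells, fibroblasts and platelets 1 member each was tested. No member was tested for mast cells or eosinophils. With the GC term 1 lung epithelial member was lower. The highest of these sums was that of T and NK cells, at 393 to 455 CPM at D7 and 334 to 359 CPM at D21, nearly all from Il7r, with no count of Cd3e, Cd4 or Ncr1 in the 4 libraries. Genes known from epithelium but outside these lists did pass. Bpifa1 rose from 0.057 and 0.152 CPM to 1.90 and 7.49 CPM (5.38 ± 1.09, edgeR adjusted p = 0.0356). Scel (3.18 ± 0.61) and Ocln (1.91 ± 0.41) rose as well. All of these also rose in control cells. The part of epithelial cells in these values was not tested.

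Of 5 sex-linked genes followed, Xist passed and the Y-linked Ddx3y, Eif2s3y, Kdm5d and Uty did not (edgeR adjusted p 0.445 to 1.0). Xist, transcribed from the inactive X of female cells, was at 0.912 and 0.405 CPM in D7 LPS and at 482 and 365 CPM in D21 LPS (9.33 ± 1.23, edgeR adjusted p = 0.000616). The Y-linked Ddx3y was at 326 and 272 CPM in D7 LPS and at 158 and 161 CPM in D21 LPS (-0.91 ± 0.37, edgeR adjusted p = 0.565), and Eif2s3y at 162 and 143 and then at 78.7 and 79.6 CPM (-0.95 ± 0.37, edgeR adjusted p = 0.467). Both passed with the GC term. Control libraries had Xist between 0 and 1.36 CPM at D7 and between 378 and 652 CPM at D21. Age and the sex-linked transcript content of the pools therefore cannot be told apart in the comparison. Of 369 tested genes on the X chromosome 3 passed and of 9 on the Y chromosome 0, and with the GC term 19 and 2. Over all 11774 tested genes 77 passed (0.654%), and 368 with the GC term.

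**Figure D5:**
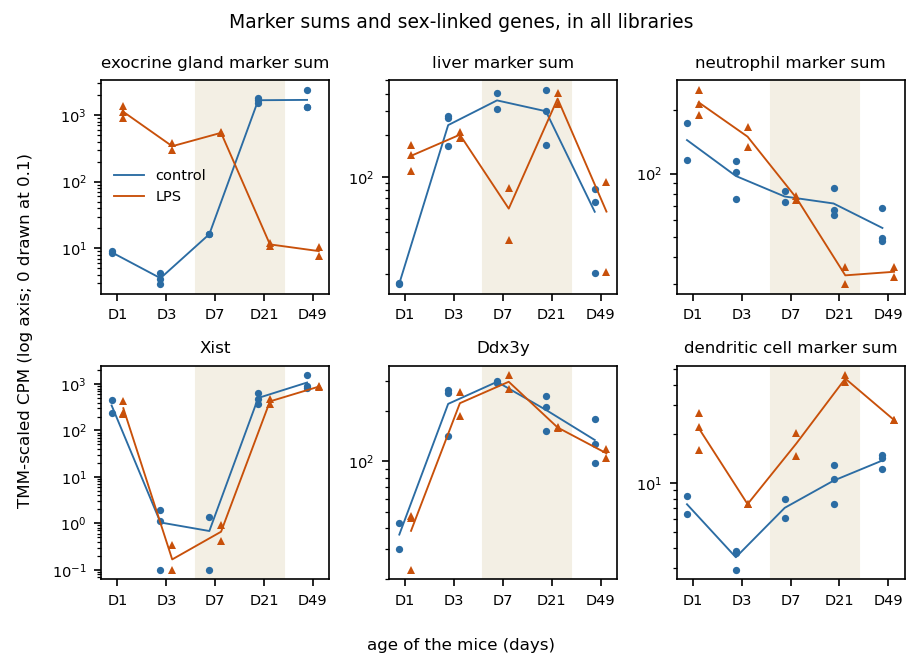
Summed markers of exocrine gland, liver, neutrophil and dendritic cells, and the sex-linked Xist and Ddx3y, in all 24 libraries by age (TMM-scaled CPM, log axis, values of 0 drawn at 0.1; blue circles control, orange triangles LPS). Between D7 and D21 the gland sum falls with LPS and rises without it, and Xist rises in both.

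How far the changes continue outside the D7 and D21 samples was read from D49 LPS against D3 LPS, which share no library with this comparison. In that contrast 445 genes rose (3.78%) and 394 fell (3.35%). It was fitted without the GC term, although GC deviations were 0.07 and 1.59 in D3 LPS and -0.21 and -1.34 in D49 LPS. The gland sum and Xist moved the same way there, the first from between 296 and 386 CPM to between 7.63 and 10.5 CPM and the second from at most 0.333 CPM to between 854 and 908 CPM. Of the 36 genes that fell from D7 to D21, 32 also fell from D3 to D49 and 0 rose. Of the 41 that rose, 26 also rose and 6 fell. Those 6 were Iigp1, the water and glycerol channel Aqp9, and the liver-expressed Tdo2, Fgb, Ugt2b35 and Mbl1. Without LPS, 34 of the 77 genes passed in the same direction between D7 and D21 (44.2% of the 77 and 26.4% of the 129 control genes), and 9 in the opposite direction. Those 9 were the gland genes Mucl2, Pip, Scgb2b27, Prol1, Scgb1b27, Scgb2b26, Smgc and Car6, with 2310057J18Rik beside them.

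Each age had 2 LPS libraries, and the calls rested on both. Of the 77 genes 9 passed in all 4 fits that left out 1 LPS library, namely Chil3, Fcgr2b, Flt1, Fstl1, Xist, Mucl2, Prol1, Scgb1b27 and Scgb2b26, while 47 passed in none of them (adjusted p 0.0521 to 0.652 by edgeR); those 47 include Ccl22, Ptgs2, Cd83, Mmp8, S100a8, Itgam, Slfn5, Prc1, Ccnd2, Cp and Scd1. Cd38 missed without D21 LPS library 1 (-3.41, edgeR adjusted p = 0.0741). Il1f9 missed without D21 LPS library 1 (-2.15, edgeR adjusted p = 0.0741) or 2 (-2.16, 0.0605), and Pip without D21 LPS library 1 (-5.66, 0.063). Iigp1 missed in all but the fit without D7 LPS library 2 (adjusted p 0.0605 to 0.271 by edgeR).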

How the data were processed

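Bulk RNA-seq libraries of alveolar macrophages were made with oligo-dT selection, per the labels' protocols; the submitters' processing notes list STAR and DESeq2, with no version, and GRCm39. The deposited table holds raw counts per Ensembl gene with exonic lengths, per the file headers; no source used here gives the counting tool, annotation or strand setting, so reads of antisense partners cannot be told apart. A gene name table gave symbols for 52073 of 56691 gene IDs, and GC content came from GENCODE M21 transcripts. Library totals were 15770751 to 23334625 counts.

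FPKM was computed from counts, lengths and totals, and the 11774 genes at FPKM 1 or more in 2 or more libraries were tested. edgeR 4.0.16 (R 4.3.3) fitted a quasi-likelihood model with TMM scaling and a mean for each of 10 groups over 24 libraries, since groups of 2 share their spread estimate with the others; contrasts were D21 LPS minus D7 LPS, the same in control, and their difference. The LPS contrasts at D3 and D49 and D49 LPS minus D3 LPS were added after the data were seen. The SE is the fold change divided by the square root of F. The procedure was tested on simulated counts. The floor of 3 counts covers counting error only.

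GC deviation is the median log2 deviation of the 10% of tested genes highest in GC minus that of the 10% lowest, with a prior of 2 counts. The genes named were the 12 largest rises and 12 largest falls among genes that passed at FPKM 5 or more in the higher group, without predicted genes, a set of genes always reported, and up to 6 members that passed per list. Lists (27 pathway, 15 marker) and genes were chosen with earlier results of these data known. Other genes given with values, such as Isg15, Gbp5 and the plasma protein genes, were chosen after their values were seen. Replicate libraries differed beyond sampling noise (chi-square per degree of freedom of at least 13.7). DESeq2 1.42.0, limma 3.58.1 and other settings served as alternatives. The table held 0 further per-sample columns.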

Additional observations from a re-analysis of the deposited data

Results flagged for a closer look

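For 12 genes the change from D7 to D21 differed between LPS-treated and control macrophages by the interaction test of edgeR at an adjusted p under 0.05, the value being the LPS change minus the control change on the log2 scale. Among interferon response genes these were Oas3 (-3.31), Ifit3 (-2.69) and Iigp1 (3.92). Among gland genes they were Mucl2 (-12.91), Pip (-13.16), Scgb2b27 (-12.36), Prol1 (-12.29), Scgb1b27 (-12.28), Scgb2b26 (-12.99), Car6 (-8.42) and Smgc (-19.05), with 2310057J18Rik (-18.76) beside them. Smgc and 2310057J18Rik had no count in D7 control or D21 LPS, so their fitted values depend on the prior count and are no bound. Groups of 2 or 3 libraries were too small for a search for single libraries that stand apart.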

How the results depend on the processing

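The count of 77 genes between D7 LPS and D21 LPS was 83 with RLE factors, 53 with upper-quartile factors and 69 with the replicate number as a block (replicate block). It was 188 with DESeq2, 368 with the GC term, 355 with the replicate block and the GC term, 541 with the 2 groups fitted alone, 764 in the 14 libraries, 171 with limma on log2(FPKM + 1), 190 without a filter and 49 with a filter at FPKM 5. Leaving out 1 LPS library gave 13 to 30. The split of 41 rises and 36 falls became 128 and 62 without a filter, 110 and 61 with limma, 22 and 27 at FPKM 5, 4 and 11 without D7 LPS library 1 and 12 and 18 without D7 LPS library 2. For control cells the count of 129 became 251 with DESeq2, 371 with the GC term, 44 with the groups alone, 265 in the 14 libraries, 205 with limma, 304 without a filter, 82 with the replicate block and 347 with the block and the GC term, and 18 to 95 with a library left out; the split of 85 rises and 44 falls turned to 129 and 136 in the 14 libraries, 84 and 121 with limma and 111 and 193 without a filter. For the difference of the age changes the count of 12 became 21 with DESeq2, 33 with the GC term, 37 with limma, 37 without a filter and 27 with the replicate block and the GC term, and 9 to 17 with a library left out; 1 rise and 11 falls became 17 and 16 with the GC term, 21 and 16 with limma and 19 and 18 without a filter.

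No named gene that passed changed direction under any of these settings. Of named genes that missed, Marco (-0.24) was at 0.05 with the GC term, at 0.04 with the block and the GC term, and between -0.68 and 0.40 with a library left out, Il6 (-0.10) was at 0.01 without D7 LPS library 1, and Cd14 (0.04) lay between -0.11 and -0.002 under 5 settings. Of 38 named genes that passed, upper-quartile factors lost 12, limma 7, the block 5 and no filter 5; DESeq2, RLE factors, the groups alone, the GC term and the 14 libraries lost 0. The cause of these shifts was not tested. The same replicate numbers correlated at 0.209 across D7 and D21 LPS; 2 pairs and the labels do not make the numbers a pairing. Genes that did not reach FPKM 1 in 2 or more of the 24 libraries were not tested. With 2 libraries a group and a pool of mice in each, a gene that missed the threshold is not shown to be equal at both ages.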
